A study of Glycine max with 60 samples.

Results

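The change described here is a step of seed filling in soybean, from stage 3 (S3, seeds of 6 to 8 mm) to stage 4 (S4, seeds of 8 to 10 mm), in the line 1MWT. The 6 libraries whose labels give 1MWT and stage 3 or stage 4, 3 for each stage, were taken from a series of 60. 1MWT is non-mutant (MIPS1/MRP-L/MRP-N) and is the near-isogenic sister of 1mlpa, which carries a mutation in MIPS1. The series also holds 3MWT, another non-mutant line, and its sister 3mlpa (mips1/mrp-l/mrp-n), each of the 4 lines at 5 stages with 3 libraries a stage. An earlier study had produced the 3MWT and 3mlpa libraries. Plants grew in chambers with 14 h of light, and RNA came from whole developing seeds with no other treatment, so a group is a line at a seed length. Whole seeds hold seed coat, endosperm and embryo, and fewer cells of a tissue and less RNA per cell cannot be told apart in such libraries. The labels call the libraries of a group replicates without saying whether they came from separate plants, so the p-values measure spread between samples. That spread was estimated within the 20 groups of all 60 libraries, not from the 6 libraries compared alone.

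A soybean seed first grows by cell division and then fills by cell expansion, while the cotyledons of the embryo lay down storage proteins in vacuoles and oil in oil bodies. The main storage proteins are the globulins glycinin and β-conglycinin, beside 2S albumins and protease inhibitors, and in Arabidopsis the transcription factors LEC1, FUS3, ABI3 and ABI5 are known to control this program. Late embryogenesis abundant (LEA) proteins, which protect cells that dry, are made towards its end. The comparison asks which transcripts differed between seeds of these neighbouring lengths.

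Total counts were 23177150 to 42800413 at S3 and 23530649 to 24374090 at S4. The 10 genes with the most counts took 3.8% to 4.5% of the counts at S3 and 12.4% to 15.4% at S4. Replicate 2 of S3 stood apart from its group. Across genes its log2 levels correlated best with stage 2 replicate 3 of 1MWT (r = 0.9915) and less with the other S3 libraries (r = 0.9804 and 0.9870). It is among the 3 libraries of the series whose column names carry a suffix that the labels do not explain. Stage 2 replicate 3 of 1MWT is also among them, with the same suffix. Whether the likeness of these libraries comes from seed age or from handling was not tested.

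Each gene was tested with edgeR on the deposited counts, and was called at an adjusted p under 0.01 with an absolute log2 fold change above 1, a doubling. Levels are CPM, counts scaled to a common library size, fold changes are S4 over S3, and values after ± are standard errors of the fold change unless marked SD. Of 40517 genes tested, 1264 were called (3.12%), of which 720 rose (1.78%) and 544 fell (1.34%). The median log2 fold change was 1.68 for the genes that rose, -1.49 for those that fell and -0.0028 for all genes tested. S3 and S4 ranges did not overlap in 1253 of the called genes, and in 43.3% of all genes tested. Gene names came from the authors' tables of differential expression, which cover 12000 genes that they called somewhere in the series. Their comparisons included this step in 1MWT, so genes entered the annotation and the lists in part by their change in these same libraries. Among the 11824 annotated genes tested here, 9.79% were called, 5.52% rose and 4.27% fell, with a median log2 fold change of -0.17. The gene lists below are read beside these values. The number of calls was lower with any 1 of these libraries left out. It was 399 without S4 replicate 2, 918 and 803 without S4 replicates 1 and 3, and 690, 795 and 737 without S3 replicates 1, 2 and 3. Whichever library was left out, 320 genes stayed called in the same direction, 235 that rose and 85 that fell.

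**Figure D1:**
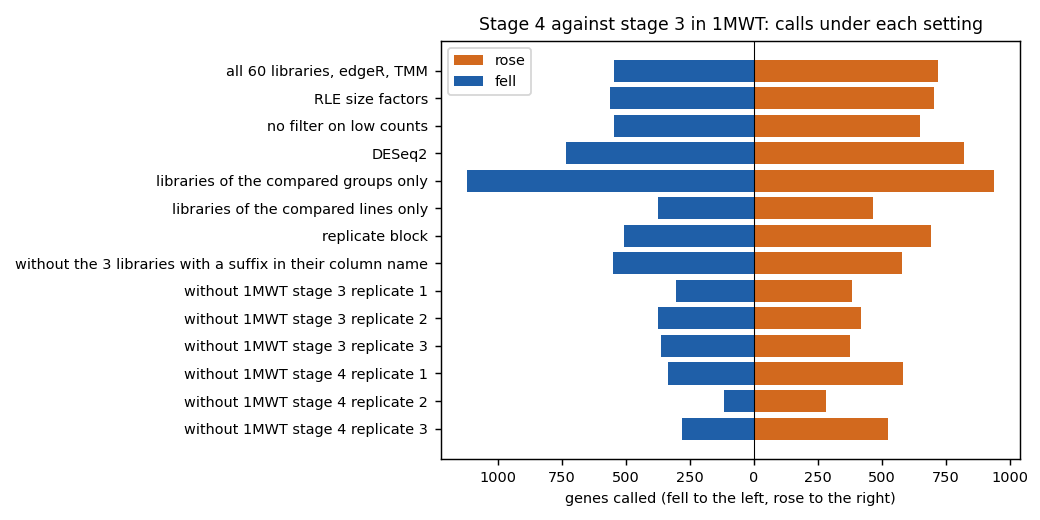
Number of genes called between S3 and S4 in 1MWT (horizontal axis, genes that fell to the left of 0 and genes that rose to the right) with all 60 libraries (top bar, 720 rose and 544 fell) and under each alternative. The totals run from 399 without S4 replicate 2 to 2056 when only the 6 libraries compared were fitted.

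Storage protein genes were among the largest rises. Of the 12 largest rises among called, annotated genes with a mean log2 CPM above 1 and no overlap of groups, 5 were genes of glycinin, β-conglycinin or 2S albumin. The gene of the glycinin A3B4 subunit, Glyma.13G123500, was at 6.64, 3.31 and 3.38 CPM at S3 and 1507, 2756 and 1874 CPM at S4. It had the largest rise of these (log2 fold change 8.86 ± 1.78, adjusted p = 0.000744). A further glycinin gene, Glyma.10G037100, was at 95.9, 58.0 and 71.7 CPM at S3 and 7051, 11420.2 and 7909 CPM at S4 and rose (log2 fold change 6.87 ± 1.67, adjusted p = 0.00394). Glycinin G1, Glyma.03G163500, was at 1189, 1019 and 988 CPM at S3 and 34357, 48808 and 34910.4 CPM at S4 and rose (log2 fold change 5.21 ± 1.28, adjusted p = 0.00443). All S4 libraries were far above all S3 libraries in these genes, and S4 replicate 2 was the highest. That the groups did not overlap was required by the choice of these genes. The β-conglycinin β gene Glyma.20G148200 was scarce, at 0.494, 0.0618 and 0.157 CPM at S3 and 7.03, 20.1 and 5.11 CPM at S4, and rose (log2 fold change 5.58 ± 1.52, adjusted p = 0.00912). Reads can be shared between near-identical copies of these genes, and how such reads were counted was not stated, so the split among copies is uncertain. Over the 6 fits without 1 library the log2 fold change was 6.64 to 7.08 for Glyma.10G037100 (no call without S3 replicates 1, 2 or 3 or S4 replicate 2), 5.02 to 5.30 for Glyma.03G163500 (no call without S3 replicates 1, 2 or 3 or S4 replicate 2) and 4.76 to 6.44 for Glyma.20G148200 (no call in any of the 6 fits).

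**Figure D2:**
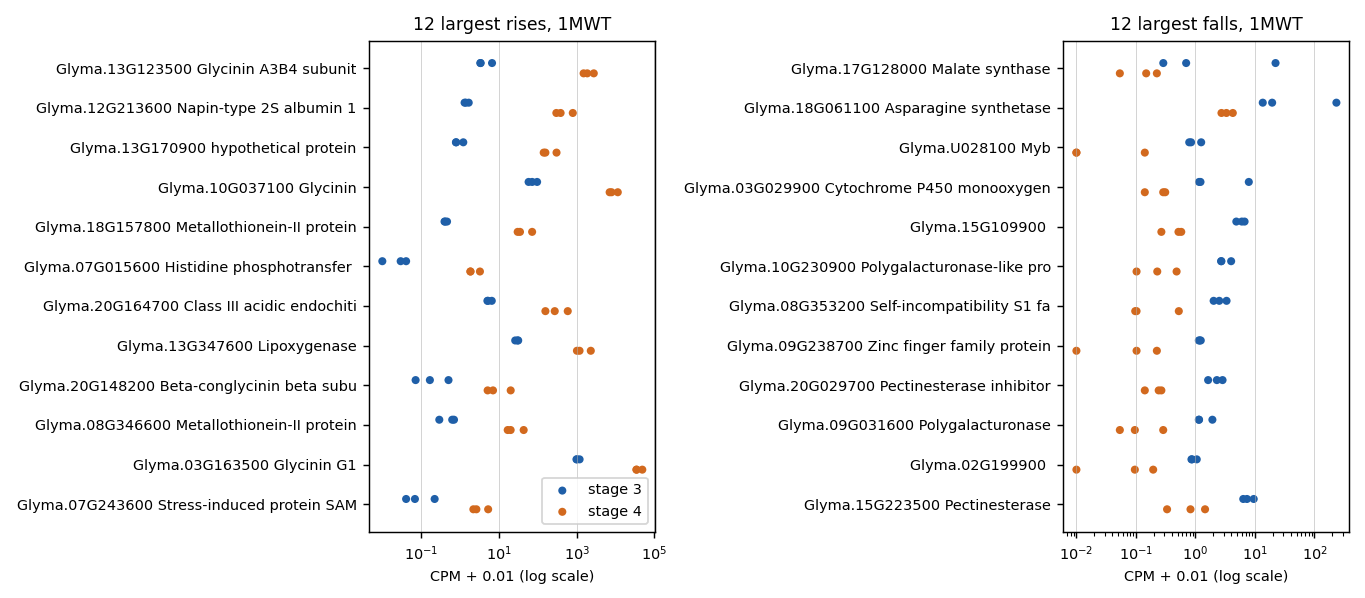
CPM in each S3 (blue) and S4 (orange) library of 1MWT, on a log axis with 0.01 added so that 0 can be drawn, for the 12 largest rises (left) and the 12 largest falls (right). The genes were chosen without overlap of S3 and S4, and malate synthase, asparagine synthetase and the cytochrome P450 gene each have 1 S3 library far above the others, at 22.2, 234 and 7.87 CPM (Glyma.17G128000, Glyma.18G061100 and Glyma.03G029900).

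Over all storage globulins, 11 of 18 tested genes rose, 0 fell and 7 did not pass the test (median log2 fold change 3.48). Their share of the counts was 0.760% to 0.817% at S3 and 7.69% to 9.74% at S4. The vicilin-like gene Glyma.11G065800 was at 49.3, 39.3 and 43.9 CPM at S3 and 469, 570.0 and 448 CPM at S4 and rose (log2 fold change 3.49 ± 0.69, adjusted p = 0.000654). Sucrose-binding protein 2, Glyma.02G145700, of the same cupin family, was at 37.0, 30.5 and 35.2 CPM at S3 and 685, 1205 and 744 CPM at S4 and rose (log2 fold change 4.68 ± 1.00, adjusted p = 0.00127). A β-conglycinin α′ gene, Glyma.10G246500, was at 18.6, 15.9 and 25.0 CPM at S3 and 251, 373 and 259 CPM at S4 and rose (log2 fold change 3.89 ± 0.84, adjusted p = 0.00149). In these genes too the groups were well apart. Another β-conglycinin α′ gene, Glyma.10G246300, was at 3359.8, 3407 and 3418 CPM at S3 and 21968, 26645 and 23391 CPM at S4, yet was not called (log2 fold change 2.82 ± 0.86, adjusted p = 0.0202). With only the 6 libraries fitted it was called (adjusted p = 3.88e-05), as it was by DESeq2. The members not called include a pair of genes that match a chloroplast RNA-binding protein and share its symbol, CRB, with a cruciferin. The list held, with 1 of the 6 libraries left out, 2 to 8 rising genes and a median of 3.36 to 3.56, and it held 13 rising genes with only the 6 libraries fitted and 7 with only the 1MWT line fitted. With each library left out in turn the log2 fold change was 4.38 to 4.83 for Glyma.02G145700 (no call without S3 replicates 2 or 3) and 3.68 to 4.09 for Glyma.10G246500 (no call without S3 replicates 1 or 2).

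In the superfamily of 2S albumins and lipid transfer proteins, storage albumins were among the genes that rose. The list had 76 tested genes, of which 5 rose, 7 fell and 64 were not called (median log2 fold change -0.10). The napin-type 2S albumin gene Glyma.12G213600 was at 1.66, 1.39 and 1.30 CPM at S3 and 299.9, 794 and 386 CPM at S4 and rose (log2 fold change 8.42 ± 1.31, adjusted p = 5.38e-05). The 2S albumin gene Glyma.13G288100 was at 30.6, 37.1 and 31.1 CPM at S3 and 503, 1345 and 627 CPM at S4 and rose (log2 fold change 4.65 ± 0.94, adjusted p = 0.000759). S4 replicate 2 was the highest library for both. Every S4 library was above every S3 library, which the rule for the largest rises required for Glyma.12G213600. A gene of a proline-rich protein of the DC2.15 type, Glyma.17G139500, was at 32.6, 35.0 and 27.3 CPM at S3 and 4.32, 3.70 and 5.15 CPM at S4 and fell (log2 fold change -2.85 ± 0.40, adjusted p = 1.46e-05). The scarce lipid transfer protein gene Glyma.08G321600 was at 0.106, 0.0309 and 0.236 CPM at S3 and 1.13, 2.54 and 1.33 CPM at S4 and rose (log2 fold change 3.55 ± 0.74, adjusted p = 0.00117). Without 1 library at a time, log2 fold changes were 3.12 to 4.55 for Glyma.08G321600 (no call without S4 replicate 2).

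Among genes of oil body coats the calls were rises. Oleosins cover the oil body, and steroleosins (HSD genes) sit in the same coat. Calls were made for 10 rising and 0 falling genes of 20 tested, with a median log2 fold change of 1.93 and 10 genes not called. The oleosin gene Glyma.20G196600 was at 44.5, 49.6 and 38.3 CPM at S3 and 519, 788 and 557 CPM at S4 and rose (log2 fold change 3.82 ± 0.78, adjusted p = 0.000862). A scarcer oleosin gene, Glyma.06G209900, was at 2.01, 2.32 and 1.81 CPM at S3 and 19.2, 25.8 and 17.4 CPM at S4 and rose (log2 fold change 3.35 ± 0.61, adjusted p = 0.000292). The HSD1 homolog Glyma.05G203400 was at 11.7, 11.1 and 11.0 CPM at S3 and 57.5, 67.5 and 54.8 CPM at S4 and rose (log2 fold change 2.41 ± 0.56, adjusted p = 0.00262). S3 and S4 libraries did not overlap in any of these. The P24 oleosin gene Glyma.16G071800 was not called, with 1349, 1435 and 1244 CPM at S3 and 4753, 5929 and 4914 CPM at S4 (log2 fold change 1.95 ± 0.74, adjusted p = 0.0616), and it was named here after its values were seen. With 1 of the 6 libraries left out the list held 2 to 4 rising genes and a median of 1.85 to 2.01. It held 16 rising and 1 falling gene with only the 6 libraries fitted, and 3 rising with only the 1MWT line fitted. Leaving out each library in turn gave log2 fold changes of 2.32 to 2.47 for Glyma.05G203400 (no call without S3 replicates 1, 2 or 3 or S4 replicate 2).

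Of the enzymes of oil synthesis, a desaturase and an acyltransferase gene rose. In that list 2 of 34 tested genes rose, 0 fell and 32 did not pass the test (median log2 fold change 0.12), near the 5.52% of annotated genes that rose. The FAD2 homolog Glyma.10G278000, whose enzyme turns oleic into linoleic acid, was at 53.9, 63.0 and 49.1 CPM at S3 and 334, 442 and 349.8 CPM at S4 and rose (log2 fold change 2.76 ± 0.57, adjusted p = 0.000977). The diacylglycerol acyltransferase gene Glyma.09G065300 (TAG1), whose enzyme adds the last acyl chain of oil, was at 17.96, 19.5 and 16.7 CPM at S3 and 38.9, 44.2 and 38.3 CPM at S4 and rose (log2 fold change 1.17 ± 0.22, adjusted p = 0.000484). Both were higher in every S4 library. Acetyl-CoA carboxylase Glyma.04G104900 (ACC1), which makes the substrate of chain elongation, was at 156, 179.7 and 161 CPM at S3 and 123, 78.5 and 97.5 CPM at S4 and was not called (log2 fold change -0.73 ± 0.21, adjusted p = 0.0149). The calls of FAD2 and TAG1 held whichever library was left out, but neither gene was called with only the 1MWT line fitted (log2 fold changes 2.75 and 1.15).

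Some of the genes of LEA proteins and dehydrins rose. In this list 13 of 51 tested genes rose, 0 fell and 38 did not pass the test, and the median log2 fold change was 1.17. The LEA14 homolog Glyma.07G064700 was at 2.22, 2.16 and 2.202 CPM at S3 and 8.95, 12.2 and 9.19 CPM at S4 and rose (log2 fold change 2.198 ± 0.44, adjusted p = 0.00074). The LEA group 5 gene Glyma.10G027600 was at 3.42, 2.78 and 3.54 CPM at S3 and 13.1, 13.8 and 11.3 CPM at S4 and rose (log2 fold change 1.97 ± 0.40, adjusted p = 0.000841). Seed maturation protein PM36, Glyma.17G032700, was at 23.2, 18.8 and 23.4 CPM at S3 and 60.2, 60.1 and 59.7 CPM at S4 and rose (log2 fold change 1.46 ± 0.30, adjusted p = 0.00103). In each, every S4 library was above every S3 library, and these calls held whichever library was left out. The dehydrin gene Glyma.08G048900 (XERO1 homolog) was at 4.09, 3.28 and 3.03 CPM at S3 and 12.7, 15.3 and 12.7 CPM at S4 and rose (log2 fold change 1.98 ± 0.45, adjusted p = 0.00233). The list held, with 1 of the 6 libraries left out, 3 to 6 rising genes, 0 to 1 falling and a median of 1.04 to 1.21. It held 22 rising genes with only the 6 libraries fitted and 10 with only the 1MWT line fitted. Over the 6 fits without 1 library the log2 fold change was 1.88 to 2.11 for Glyma.08G048900 (no call without S3 replicates 2 or 3 or S4 replicate 2).

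Protease inhibitors, which soybean seeds store in quantity, included genes of several families that rose. The list had 37 tested genes, of which 10 rose, 1 fell and 26 were not called (median log2 fold change 1.01). The Bowman-Birk isoinhibitor gene Glyma.14G117700 was at 18.6, 29.7 and 27.2 CPM at S3 and 538, 1022 and 599 CPM at S4 and rose (log2 fold change 4.84 ± 1.02, adjusted p = 0.00117). The Kunitz inhibitor gene Glyma.09G155500 was at 176, 155 and 178 CPM at S3 and 469, 557 and 495 CPM at S4 and rose (log2 fold change 1.58 ± 0.34, adjusted p = 0.00136). A scarce Bowman-Birk gene, Glyma.09G158700, was at 0.0706, 0.0309 and 0.0786 CPM at S3 and 0.698, 0.971 and 0.73 CPM at S4 and rose (log2 fold change 3.59 ± 0.66, adjusted p = 0.000494). These rises were without overlap between S3 and S4. The abundant Kunitz trypsin inhibitor gene Glyma.08G341500 (KTI1) was at 4243, 4138 and 4639 CPM at S3 and 15203, 18805 and 16083 CPM at S4, missed the adjusted p of 0.01 (log2 fold change 1.94 ± 0.54, adjusted p = 0.011) and was also apart in every library. In deposited RPKM, which allow for gene length, the S4 level was 10724 ± 631 (SD) for β-conglycinin α′ Glyma.10G246300, 5364 ± 380.1 (SD) for KTI1 and 4273 ± 707 (SD) for glycinin G1 Glyma.03G163500. The only inhibitor gene called as lower, Glyma.08G235400, was at 13.7, 0.618 and 0.432 CPM at S3 and 0.393, 0.74 and 0.687 CPM at S4 (log2 fold change -2.98 ± 0.81, adjusted p = 0.00934), so that the groups overlapped and S3 replicate 1 alone was high. With 1 of the 6 libraries left out the list held 2 to 8 rising genes, 0 to 1 falling and a median of 0.84 to 1.08. It held 13 rising and 4 falling genes with only the 6 libraries fitted, and 12 and 3 by DESeq2. With only the 1MWT line fitted it held 3 rising genes. With each library left out in turn the log2 fold change was 4.50 to 5.01 for Glyma.14G117700 (no call without S3 replicate 1), 1.51 to 1.63 for Glyma.09G155500 (no call without S3 replicate 2 or S4 replicate 2) and -3.54 to 0.22 for Glyma.08G235400 (no call without S3 replicate 1 or S4 replicates 1, 2 or 3).

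**Figure D3:**
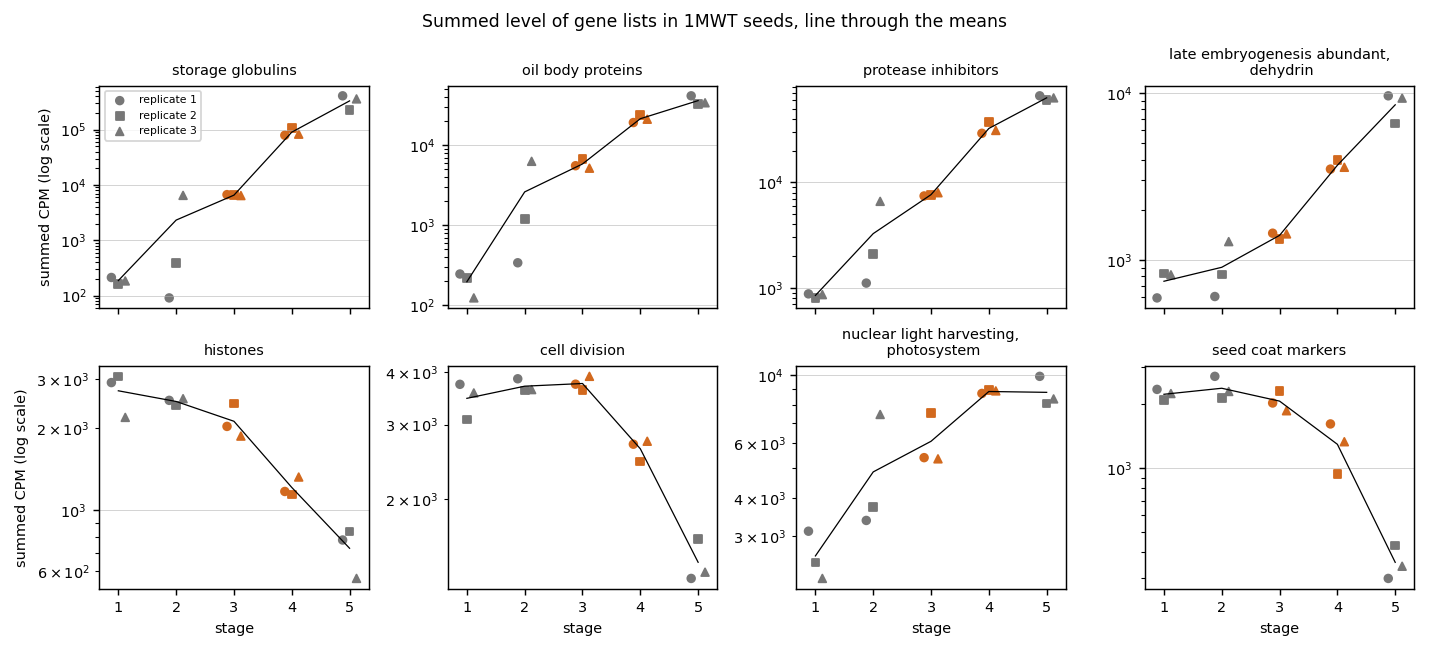
Summed CPM (vertical log axis) of all tested members of 8 gene lists in each 1MWT library at stages 1 to 5 (marker shape gives the replicate, S3 and S4 are orange), with a line through the means. Storage globulins summed to 6423 to 6682 CPM at S3 and 79009 to 108109 CPM at S4, and stage 2 replicate 3 lay at the S3 level, at 6473 CPM.

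Other genes of the 12 largest rises have varied roles. A gene annotated as a hypothetical protein, Glyma.13G170900, was at 1.20, 0.773 and 0.786 CPM at S3 and 142, 303 and 157 CPM at S4 and rose (log2 fold change 7.79 ± 1.16, adjusted p = 2.87e-05). Metallothioneins bind metal ions, and the metallothionein-II gene Glyma.18G157800 was at 0.388, 0.402 and 0.452 CPM at S3 and 30.3, 71.4 and 34.8 CPM at S4 and rose (log2 fold change 6.75 ± 1.26, adjusted p = 0.000388). Its homolog Glyma.08G346600 was at 0.282, 0.618 and 0.688 CPM at S3 and 16.8, 43.3 and 20.01 CPM at S4 and rose (log2 fold change 5.58 ± 0.92, adjusted p = 9.12e-05). In all 3 genes S4 replicate 2 was the highest, and the lack of overlap was required by their choice. The class III endochitinase gene Glyma.20G164700 was at 6.53, 5.04 and 5.23 CPM at S3 and 157, 589 and 273 CPM at S4 and rose (log2 fold change 5.92 ± 1.41, adjusted p = 0.0033). SAM22, Glyma.07G243600, of the PR-10 stress proteins, was at 0.212, 0.0309 and 0.059 CPM at S3 and 2.62, 5.27 and 2.19 CPM at S4 and rose (log2 fold change 5.14 ± 1.11, adjusted p = 0.00145). The AHP4 homolog Glyma.07G015600, of the family that relays cytokinin signals, held 2.00 counts over the S3 libraries and 155 over the S4 libraries. Its ratio of S3 to S4 was 0.00785 (95% exact interval 0.000942 to 0.0288, counting error only), and it was called (log2 fold change 6.67 ± 0.98, adjusted p = 3.79e-05). Without 1 library at a time, log2 fold changes were 5.26 to 6.27 for Glyma.20G164700 (no call without S3 replicates 1, 2 or 3 or S4 replicate 2) and 4.66 to 5.99 for Glyma.07G243600 (no call without S3 replicates 2 or 3 or S4 replicate 2).

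Lipoxygenases, which oxidise unsaturated fatty acids and are abundant in soybean seeds, moved in both directions. They were tested in the list of wound, touch and jasmonate genes, where 7 of 95 tested genes rose, 3 fell and 85 did not pass the test (median log2 fold change -0.21). Glyma.13G347600 was at 26.2, 30.2 and 31.3 CPM at S3 and 1016, 2309 and 1185 CPM at S4 and rose (log2 fold change 5.68 ± 1.10, adjusted p = 0.000545). A further lipoxygenase gene, Glyma.13G347500, named after its values were seen, was at 574, 471 and 656 CPM at S3 and 7526, 9601 and 7371 CPM at S4 and rose (log2 fold change 3.85 ± 0.95, adjusted p = 0.00438). For Glyma.10G153900 the levels were 111, 113 and 118 CPM at S3 and 57.6, 34.1 and 46.9 CPM at S4, and it fell (log2 fold change -1.30 ± 0.25, adjusted p = 0.000534). The gene Glyma.13G347700 was at 7.80, 2.91 and 6.29 CPM at S3 and 1.18, 0.925 and 1.20 CPM at S4 and fell (log2 fold change -2.35 ± 0.53, adjusted p = 0.00192). None of these had overlapping groups, which the rule for the largest rises required for Glyma.13G347600. Allene oxide cyclase Glyma.02G099200, which makes a precursor of jasmonate, was at 2.22, 1.79 and 2.32 CPM at S3 and 3.97, 5.09 and 4.25 CPM at S4 and rose (log2 fold change 1.07 ± 0.23, adjusted p = 0.00165). Leaving out each library in turn gave log2 fold changes of 3.71 to 3.96 for Glyma.13G347500 (no call without S3 replicates 1, 2 or 3 or S4 replicate 2), -1.495 to -1.13 for Glyma.10G153900 (no call without S4 replicate 2), -2.66 to -2.07 for Glyma.13G347700 (no call without S3 replicate 1 or S4 replicate 2) and 0.96 to 1.14 for Glyma.02G099200 (no call without S3 replicate 2 or S4 replicate 2).

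Among the largest falls, 3 rested on S3 replicate 1. Malate synthase, Glyma.17G128000, an enzyme of the glyoxylate cycle, was at 22.2, 0.278 and 0.688 CPM at S3 and 0.0437, 0.139 and 0.215 CPM at S4 and was called (log2 fold change -5.78 ± 1.37, adjusted p = 0.00323). Without S3 replicate 1 its log2 fold change was -1.90 and it was not called. Asparagine synthetase, Glyma.18G061100 (ASN1), which darkness induces in Arabidopsis, was at 234, 13.5 and 19.4 CPM at S3 and 4.23, 2.73 and 3.31 CPM at S4 and was called (log2 fold change -4.69 ± 1.20, adjusted p = 0.00599). Without that library the value was -2.27, with no call. The cytochrome P450 gene Glyma.03G029900 was at 7.87, 1.21 and 1.14 CPM at S3 and 0.131, 0.277 and 0.301 CPM at S4 and was called (log2 fold change -3.79 ± 0.99, adjusted p = 0.00702), against -2.29 with no call. In each, S3 replicate 1 was far above the other S3 libraries. That those also lay above every S4 library was required by the choice of these genes. Inositol oxygenase Glyma.08G199300 (MIOX1), not called, had the same order, at 20.01, 3.65 and 5.60 CPM at S3 and 2.84, 2.404 and 2.404 CPM at S4 (log2 fold change -1.92 ± 0.56, adjusted p = 0.0139). Over the 6 fits without 1 library the log2 fold change was -6.35 to -1.90 for Glyma.17G128000 (no call without S3 replicate 1 or S4 replicates 1, 2 or 3), -5.20 to -2.27 for Glyma.18G061100 (no call without S3 replicate 1 or S4 replicates 1, 2 or 3) and -4.23 to -2.29 for Glyma.03G029900 (no call without S3 replicate 1 or S4 replicates 1, 2 or 3). In 3mlpa, in other libraries, these genes were called as lower at S4 (log2 fold changes -5.46, -5.21 and -4.14). None was called in 1mlpa (-3.22, -2.06 and -2.51) or 3MWT (-2.36, -3.14 and -1.41).

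The other large falls were of scarce genes. A match to MYB98, a factor of the synergid cells in Arabidopsis, Glyma.U028100, held 112 counts over S3 and 3.00 over S4. Its ratio of S3 to S4 was 22.7 (95% exact interval 7.57 to 112, counting error only), and it was called (log2 fold change -4.31 ± 1.06, adjusted p = 0.00471). A gene with no annotated function, Glyma.15G109900, was at 6.00, 4.85 and 6.68 CPM at S3 and 0.567, 0.509 and 0.258 CPM at S4 and fell (log2 fold change -3.71 ± 0.59, adjusted p = 7.08e-05). The S1 family gene Glyma.08G353200 was at 2.01, 2.50 and 3.32 CPM at S3 and 0.0873, 0.0925 and 0.515 CPM at S4 and fell (log2 fold change -3.46 ± 0.70, adjusted p = 0.000857). MIF2, Glyma.09G238700, a mini zinc finger protein, was at 1.13, 1.17 and 1.22 CPM at S3 and 0, 0.0925 and 0.215 CPM at S4 and fell (log2 fold change -3.45 ± 0.72, adjusted p = 0.0011). Every S3 library was above every S4 library in these genes, which their choice required. A match to invertase inhibitors, Glyma.20G029700 (C/VIF1), was at 1.62, 2.84 and 2.28 CPM at S3 and 0.131, 0.231 and 0.258 CPM at S4 and fell (log2 fold change -3.42 ± 0.73, adjusted p = 0.00132). A gene named only by an accession, Glyma.02G199900, was at 0.847, 0.866 and 1.04 CPM at S3 and 0, 0.185 and 0.0859 CPM at S4 and was called (log2 fold change -3.32 ± 0.90, adjusted p = 0.00943). With each library left out in turn the log2 fold change was -7.70 to -3.76 for Glyma.U028100 (no call without S3 replicate 3 or S4 replicates 2 or 3), -4.81 to -3.07 for Glyma.08G353200 (no call without S4 replicate 2), -4.57 to -2.88 for Glyma.09G238700 (no call without S4 replicates 1 or 2), -3.62 to -3.18 for Glyma.20G029700 (no call without S4 replicates 1 or 2) and -4.28 to -2.75 for Glyma.02G199900 (no call in any of the 6 fits).

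In the list of wall loosening and pectin more genes were called lower than higher. Calls were made for 7 rising and 20 falling genes of 202 tested, with a median log2 fold change of -0.41 and 175 genes not called. The polygalacturonase gene Glyma.10G230900, whose enzyme cuts pectin, was at 2.72, 2.69 and 3.97 CPM at S3 and 0.218, 0.0925 and 0.472 CPM at S4 and fell (log2 fold change -3.55 ± 0.73, adjusted p = 0.000904). Its relative Glyma.09G031600 was at 1.13, 1.92 and 1.14 CPM at S3 and 0.0437, 0.277 and 0.0859 CPM at S4 and fell (log2 fold change -3.34 ± 0.71, adjusted p = 0.00131). Polygalacturonase Glyma.15G136700 was at 6.95, 11.3 and 11.0 CPM at S3 and 2.05, 1.43 and 1.72 CPM at S4 and fell (log2 fold change -2.49 ± 0.35, adjusted p = 1.46e-05). S4 was below S3 in every library of these genes, which the rule for the largest falls required for Glyma.10G230900 and Glyma.09G031600. Pectinesterase Glyma.15G223500, which removes methyl groups from pectin, was at 7.34, 9.52 and 6.35 CPM at S3 and 1.44, 0.324 and 0.816 CPM at S4 and fell (log2 fold change -3.15 ± 0.48, adjusted p = 4.59e-05). Pectinesterase Glyma.15G184400 was at 20.1, 23.1 and 21.0 CPM at S3 and 10.3, 9.38 and 10.8 CPM at S4 and fell (log2 fold change -1.07 ± 0.15, adjusted p = 1.42e-05). Expansin B gene Glyma.06G294500, of a family that loosens walls, was at 7.55, 7.60 and 8.14 CPM at S3 and 2.53, 2.54 and 2.23 CPM at S4 and fell (log2 fold change -1.67 ± 0.27, adjusted p = 8.1e-05). The list held, with 1 of the 6 libraries left out, 2 to 5 rising and 6 to 17 falling genes and a median of -0.48 to -0.37. It held 10 rising and 37 falling genes with only the 6 libraries fitted. With only the 1MWT line fitted it held 5 rising and 13 falling. Without 1 library at a time, log2 fold changes were -4.29 to -3.17 for Glyma.10G230900 (no call without S4 replicate 2) and -4.32 to -2.93 for Glyma.09G031600 (no call without S4 replicates 1 or 3).

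The list of cellulose, lignin and the secondary wall held genes called in both directions. In this list 14 of 102 tested genes rose, 5 fell and 83 did not pass the test, and the median log2 fold change was 0.14. Laccase 11, Glyma.01G173600, of the enzymes that oxidise lignin precursors, was at 1.41, 1.61 and 1.06 CPM at S3 and 4.41, 5.92 and 4.72 CPM at S4 and rose (log2 fold change 1.89 ± 0.32, adjusted p = 0.000151). Cinnamyl alcohol dehydrogenase, Glyma.13G255300 (CAD1), was at 3.42, 2.72 and 3.34 CPM at S3 and 6.50, 7.54 and 7.34 CPM at S4 and rose (log2 fold change 1.17 ± 0.19, adjusted p = 9.58e-05). The COBRA-like gene Glyma.07G243200 was at 7.84, 8.56 and 6.76 CPM at S3 and 3.14, 3.74 and 4.34 CPM at S4 and fell (log2 fold change -1.04 ± 0.18, adjusted p = 0.000164). No library overlapped between stages in these. With 1 of the 6 libraries left out the list held 3 to 14 rising genes, 0 to 3 falling and a median of 0.06 to 0.19. It held 14 rising and 7 falling genes with only the 6 libraries fitted. With only the 1MWT line fitted it held 4 rising and 5 falling. Among peroxidases and NADPH oxidases, 4 of 49 tested genes rose, 3 fell and 42 did not pass the test (median log2 fold change 0.12). The RBOHF homolog Glyma.05G021100, an oxidase that makes superoxide, was at 18.5, 11.4 and 18.7 CPM at S3 and 42.7, 40.1 and 41.2 CPM at S4 and rose (log2 fold change 1.35 ± 0.24, adjusted p = 0.000231). Leaving out each library in turn gave log2 fold changes of -1.16 to -0.93 for Glyma.07G243200 (no call without S3 replicate 2 or S4 replicate 1).

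Histone genes, most of which are transcribed while cells copy DNA, had more falls than rises. The list had 40 tested genes, of which 1 rose, 15 fell and 24 were not called (median log2 fold change -0.93). The H2A gene Glyma.12G215600 was at 11.4, 9.99 and 10.2 CPM at S3 and 3.58, 2.404 and 3.09 CPM at S4 and fell (log2 fold change -1.79 ± 0.32, adjusted p = 0.00026). Histone H1, Glyma.20G225900, was at 110.0, 142 and 107 CPM at S3 and 55.8, 54.8 and 59.4 CPM at S4 and fell (log2 fold change -1.08 ± 0.20, adjusted p = 0.000442). The H3.2 gene Glyma.11G130900 was at 75.9, 101 and 69.4 CPM at S3 and 32.6, 33.0 and 39.7 CPM at S4 and fell (log2 fold change -1.22 ± 0.25, adjusted p = 0.000738). All S4 libraries were below all S3 libraries, and S3 replicate 2 was the highest for H1 and H3.2. Summed over the list it was at 2448 CPM, against 2023 and 1865 CPM in the other S3 libraries and 1143 to 1323 CPM at S4. The 1 histone gene that rose, an H2B gene, Glyma.11G191600, was at 0.212, 0.309 and 0.236 CPM at S3 and 1.57, 2.08 and 1.98 CPM at S4 (log2 fold change 2.87 ± 0.62, adjusted p = 0.00148). The list held, with 1 of the 6 libraries left out, 0 to 1 rising and 4 to 17 falling genes and a median of -1.02 to -0.86. It held 2 rising and 17 falling genes with only the 6 libraries fitted. With only the 1MWT line fitted it held 1 rising and 15 falling. Over the 6 fits without 1 library the log2 fold change was -1.16 to -0.93 for Glyma.20G225900 (no call without S3 replicate 2) and 2.79 to 3.03 for Glyma.11G191600 (no call without S3 replicate 3).

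The wider list of cell division genes (cyclins, kinesins and replication proteins) had a negative median. Calls were made for 5 rising and 5 falling genes of 196 tested, below the 5.52% and 4.27% of annotated genes that rose and fell. The median log2 fold change was -0.62, 186 genes were not called, and members ran from -1.67 to 1.78. The genes named here are not among those that rose. The D-type cyclin gene Glyma.12G199300 was at 7.24, 7.14 and 6.86 CPM at S3 and 3.06, 3.05 and 2.36 CPM at S4 and fell (log2 fold change -1.33 ± 0.23, adjusted p = 0.000167). The kinesin gene Glyma.06G096600, a KIF4 motor of chromosomes, was at 19.1, 20.5 and 19.8 CPM at S3 and 10.0, 9.29 and 11.7 CPM at S4 and passed the adjusted p but not the fold threshold (log2 fold change -0.94 ± 0.16, adjusted p = 0.000168). Every S4 library was lower in both genes. The list summed to 3616 to 3901 CPM at S3 and 2453 to 2739 CPM at S4.

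Nuclear genes for light harvesting and photosystem proteins mostly had small positive changes. In this list 6 of 101 tested genes rose, 0 fell and 95 did not pass the test, and the median log2 fold change was 0.56, and 96 of the genes had a positive estimate. LHCB4.3, Glyma.18G028400, an antenna protein of photosystem II, was at 4.45, 3.43 and 4.38 CPM at S3 and 11.8, 15.9 and 13.2 CPM at S4 and rose (log2 fold change 1.73 ± 0.35, adjusted p = 0.000819). THYLAKOID FORMATION1, Glyma.12G200200, was at 3.42, 3.06 and 3.13 CPM at S3 and 6.90, 7.26 and 7.77 CPM at S4 and rose (log2 fold change 1.19 ± 0.21, adjusted p = 0.000196). Photosystem II subunit R, Glyma.15G253700, was at 181, 169.8 and 177 CPM at S3 and 334, 331 and 343 CPM at S4 and missed the fold threshold (log2 fold change 0.93 ± 0.21, adjusted p = 0.00224). Groups were apart in all 3. The list summed to 5395, 7543 and 5347 CPM at S3 and 8707, 8922 and 8873 CPM at S4, so that S3 replicate 2 again lay apart from its group. For genes that best match an organelle gene, 1 of 131 tested genes rose, 0 fell and 130 did not pass the test (median log2 fold change 0.04). The 1 that rose, Glyma.01G107300 (YCF1), was at 0.0706, 0.0618 and 0.0983 CPM at S3 and 0.218, 0.462 and 0.472 CPM at S4 (log2 fold change 2.203 ± 0.55, adjusted p = 0.0051). With each library left out in turn the log2 fold change was 2.02 to 2.48 for Glyma.01G107300 (no call without S3 replicates 1, 2 or 3 or S4 replicates 2 or 3).

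Among regulators of embryo maturation, a bZIP67 and an ABI5 homolog rose. In that list 2 of 28 tested genes rose, 0 fell and 26 did not pass the test (median log2 fold change 0.13). The bZIP67 homolog Glyma.13G317000, of a factor that activates seed genes in Arabidopsis, was at 12.7, 13.3 and 15.4 CPM at S3 and 32.5, 35.8 and 32.1 CPM at S4 and rose (log2 fold change 1.27 ± 0.19, adjusted p = 2.41e-05). An ABI5 homolog, Glyma.10G071700, was at 17.8, 21.5 and 18.9 CPM at S3 and 60.5, 65.0 and 56.3 CPM at S4 and rose (log2 fold change 1.64 ± 0.42, adjusted p = 0.00557). A second ABI5 homolog, Glyma.13G153200, was at 29.3, 29.6 and 28.5 CPM at S3 and 96.6, 96.3 and 86.4 CPM at S4 and was not called (log2 fold change 1.68 ± 0.48, adjusted p = 0.0139), though it was with only the 6 libraries fitted (adjusted p = 6.63e-06). WRI1, Glyma.08G297000, a regulator of oil synthesis, was at 5.22, 5.94 and 5.25 CPM at S3 and 9.60, 12.2 and 10.8 CPM at S4 and was not called (log2 fold change 0.99 ± 0.28, adjusted p = 0.012). S4 was above S3 in every library of these genes. ABI3, Glyma.08G357600, was at 213, 215 and 238 CPM at S3 and 323, 316 and 315 CPM at S4 and LEC1-A, Glyma.07G268100, at 79.6, 79.2 and 72.5 CPM at S3 and 53.8, 44.2 and 52.8 CPM at S4. Neither was called (adjusted p = 0.0942 and 0.0574). Without 1 library at a time, log2 fold changes were 1.58 to 1.73 for Glyma.10G071700 (no call in any of the 6 fits).

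Hormone lists were called in both directions. For abscisic acid, which promotes maturation, 5 of 73 tested genes rose, 1 fell and 67 did not pass the test (median log2 fold change -0.01). The 5 include the bZIP67 homolog Glyma.13G317000 and the ABI5 homolog Glyma.10G071700, already counted above among the maturation regulators. The CCD1 homolog Glyma.06G085100, a carotenoid cleavage enzyme, was at 0.882, 1.82 and 0.963 CPM at S3 and 5.37, 7.95 and 5.41 CPM at S4 and rose (log2 fold change 2.36 ± 0.36, adjusted p = 4.41e-05). The protein phosphatase gene Glyma.11G018000 (HAI3), which dampens abscisic acid signals, was at 0.671, 0.433 and 0.59 CPM at S3 and 2.92, 2.87 and 2.58 CPM at S4 and rose (log2 fold change 2.296 ± 0.46, adjusted p = 0.000668). For gibberellin, 6 of 76 tested genes rose, 2 fell and 68 did not pass the test (median log2 fold change -0.10). Gibberellin 2-oxidase Glyma.13G287600 (GA2OX8), which inactivates gibberellin, was at 1.69, 2.13 and 1.49 CPM at S3 and 7.42, 24.5 and 12.1 CPM at S4 and rose (log2 fold change 3.05 ± 0.49, adjusted p = 7.08e-05). The GASA1 homolog Glyma.18G132100, a gibberellin-regulated protein, was at 15.0, 17.7 and 15.2 CPM at S3 and 64.1, 102 and 73.0 CPM at S4 and rose (log2 fold change 2.32 ± 0.39, adjusted p = 0.000114). None of the 4 genes whose levels are given here had overlapping groups. The calls of these 4 held whichever of the 6 libraries was left out.

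In the auxin list 4 of 154 tested genes rose, 7 fell and 143 did not pass the test (median log2 fold change -0.28). A SAUR-like gene, Glyma.12G033800, held 70.0 counts over S3 and 3.00 over S4, a ratio of 14.2 (95% exact interval 4.66 to 70.5, counting error only), and was called (log2 fold change -3.71 ± 0.75, adjusted p = 0.000826). In the cytokinin list 3 of 68 tested genes rose, 3 fell and 62 did not pass the test (median log2 fold change -0.41). The GATA factor Glyma.15G169300 (CGA1), which promotes chloroplast growth in Arabidopsis, was at 10.7, 9.95 and 8.87 CPM at S3 and 28.9, 34.6 and 31.2 CPM at S4 and rose (log2 fold change 1.68 ± 0.34, adjusted p = 0.000723). In the ethylene list 5 of 123 tested genes rose, 4 fell and 114 did not pass the test (median log2 fold change -0.32). The SHN2 homolog Glyma.04G067200, of a family that controls cuticle genes, was at 1.59, 0.927 and 1.24 CPM at S3 and 0.218, 0.139 and 0.129 CPM at S4 and fell (log2 fold change -2.91 ± 0.46, adjusted p = 5.38e-05). Its S4 libraries were all lower than its S3 libraries, and those of CGA1 were all higher. The calls of Glyma.12G033800, Glyma.15G169300 and Glyma.04G067200 held whichever of the 6 libraries was left out. With only the 1MWT line fitted there was no call for Glyma.15G169300. The list counts did not hold. Without S4 replicate 2, 0 auxin genes rose and 1 fell, 1 cytokinin gene rose and 0 fell, and 0 ethylene genes rose and 1 fell.

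These families of transcription factors had negative medians, as did all annotated genes tested, at -0.17, of which 4.27% fell. Of WRKY factors, 1 of 66 tested genes rose, 4 fell and 61 did not pass the test (median log2 fold change -0.69). The WRKY22 homolog Glyma.18G238200 was at 4.98, 4.64 and 4.58 CPM at S3 and 1.79, 1.34 and 1.59 CPM at S4 and fell (log2 fold change -1.58 ± 0.36, adjusted p = 0.00239). Of NAC factors, 1 of 73 tested genes rose, 5 fell and 67 did not pass the test (median log2 fold change -0.56). A NAC044 homolog, Glyma.19G056400, was at 5.75, 6.83 and 5.07 CPM at S3 and 2.88, 2.68 and 3.05 CPM at S4 and fell (log2 fold change -1.03 ± 0.19, adjusted p = 0.000254). Of MYB factors, 3 of 197 tested genes rose, 14 fell and 180 did not pass the test (median log2 fold change -0.35). The ETC1 homolog Glyma.12G195200, of epidermal patterning in Arabidopsis, was at 14.7, 22.4 and 13.9 CPM at S3 and 5.76, 3.05 and 5.37 CPM at S4 and fell (log2 fold change -1.84 ± 0.33, adjusted p = 0.000218). The 3 genes that fell had no overlap between groups. A MYB16 homolog, Glyma.04G166900, was at 1.55, 1.67 and 1.20 CPM at S3 and 3.75, 4.16 and 4.08 CPM at S4 and rose (log2 fold change 1.45 ± 0.27, adjusted p = 0.000439). Leaving out each library in turn gave log2 fold changes of -1.69 to -1.48 for Glyma.18G238200 (no call without S4 replicates 2 or 3) and -1.14 to -0.90 for Glyma.19G056400 (no call without S3 replicate 2 or S4 replicate 2). Without S4 replicate 2 the falling calls were 0 for WRKY, 0 for NAC and 4 for MYB factors, with medians of -0.72, -0.64 and -0.32.

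Carbohydrate genes differed by enzyme. For starch synthesis, 3 of 18 tested genes rose, 0 fell and 15 did not pass the test (median log2 fold change 0.42). The large subunit gene of ADP-glucose pyrophosphorylase, Glyma.14G072500 (APL2), which makes the substrate of starch, was at 5.08, 3.68 and 4.52 CPM at S3 and 11.1, 13.3 and 11.8 CPM at S4 and rose (log2 fold change 1.45 ± 0.27, adjusted p = 0.000297). Granule-bound starch synthase Glyma.16G018500, the enzyme of amylose, was at 64.6, 96.4 and 78.8 CPM at S3 and 171, 193 and 163 CPM at S4 and rose (log2 fold change 1.14 ± 0.23, adjusted p = 0.000842). For starch breakdown, 1 of 17 tested genes rose, 2 fell and 14 did not pass the test (median log2 fold change -0.53). The β-amylase gene Glyma.06G301500 was at 847, 748 and 1076 CPM at S3 and 3338, 3589.6 and 3445 CPM at S4 and rose (log2 fold change 1.96 ± 0.40, adjusted p = 0.000842). The chloroplast β-amylase gene Glyma.01G203400 (BAM3) was at 11.3, 9.43 and 16.7 CPM at S3 and 5.41, 4.95 and 5.02 CPM at S4 and fell (log2 fold change -1.29 ± 0.31, adjusted p = 0.00406). Groups did not overlap in these 4 genes. For enzymes of sucrose and raffinose sugars, 2 of 41 tested genes rose, 2 fell and 37 did not pass the test (median log2 fold change -0.35). All 4 called are annotated as genes of α-galactosidases, which split raffinose sugars, though 1 of them, Glyma.14G010500, best matches seed imbibition 1 (SIP1) and is described in the study as a raffinose synthase or seed imbibition protein. The list also took in 6 kinase genes that share the symbol SIP1, none of them called. Of the 4, Glyma.09G273400 was at 94.9, 94.8 and 102 CPM at S3 and 204, 246 and 229 CPM at S4 and rose (log2 fold change 1.22 ± 0.27, adjusted p = 0.00167). Over the 6 fits without 1 library the log2 fold change was 1.00 to 1.30 for Glyma.16G018500 (no call without S3 replicate 1), -1.45 to -1.02 for Glyma.01G203400 (no call without S3 replicate 3 or S4 replicates 1, 2 or 3) and 1.16 to 1.29 for Glyma.09G273400 (no call without S3 replicate 1 or S4 replicate 2).

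Genes of inositol and phytic acid are the subject of the series. The list had 20 tested genes, of which 2 rose, 0 fell and 18 were not called (median log2 fold change -0.22), against the 9.79% of annotated genes called. MIPS1, Glyma.11G238800, whose enzyme starts myo-inositol synthesis, was at 2115, 2632 and 2614 CPM at S3 and 2774, 2715 and 2798 CPM at S4 and was not called (log2 fold change 0.17 ± 0.25, adjusted p = 0.692). MRP-L, Glyma.19G169000, and MRP-N, Glyma.03G167800, are genes of transporters that load phytic acid into the vacuole. MRP-L was at 53.3, 46.1 and 54.0 CPM at S3 and 83.8, 87.0 and 72.6 CPM at S4 (log2 fold change 0.67 ± 0.16, adjusted p = 0.00428). MRP-N was at 46.6, 54.2 and 47.4 CPM at S3 and 92.1, 97.2 and 79.9 CPM at S4 (log2 fold change 0.86 ± 0.22, adjusted p = 0.0068). Both were higher in every S4 library but stayed under the fold threshold. Inositol monophosphatase Glyma.09G011100 (VTC4), which frees myo-inositol, was at 13.4, 14.2 and 17.8 CPM at S3 and 33.3, 41.5 and 40.6 CPM at S4 and rose (log2 fold change 1.34 ± 0.28, adjusted p = 0.000988). Inositol pentakisphosphate 2-kinase Glyma.14G072200, which adds the last phosphate of phytic acid, was at 25.0, 21.4 and 28.3 CPM at S3 and 51.9, 49.1 and 51.4 CPM at S4 and rose (log2 fold change 1.03 ± 0.24, adjusted p = 0.00303). With each library left out in turn the log2 fold change was 0.94 to 1.13 for Glyma.14G072200 (no call without S3 replicates 1 or 2 or S4 replicates 1, 2 or 3).

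Carriers were called in both directions. For sugar transporters, 1 of 53 tested genes rose, 5 fell and 47 did not pass the test (median log2 fold change -0.16). The hexose carrier Glyma.01G238800 (STP13) was at 5.05, 7.20 and 5.68 CPM at S3 and 1.35, 1.29 and 1.07 CPM at S4 and fell (log2 fold change -2.27 ± 0.44, adjusted p = 0.000586). For carriers of amino acids and nitrogen, 7 of 130 tested genes rose, 3 fell and 120 did not pass the test (median log2 fold change -0.08). The oligopeptide transporter Glyma.14G012400 (OPT1) was at 0.741, 0.433 and 0.727 CPM at S3 and 7.03, 5.87 and 4.55 CPM at S4 and rose (log2 fold change 3.17 ± 0.62, adjusted p = 0.000566). For mineral ion transporters and aquaporins, 10 of 92 tested genes rose, 6 fell and 76 did not pass the test (median log2 fold change -0.13). The α-TIP aquaporin gene Glyma.20G216100, which marks the membrane of protein storage vacuoles, was at 1.20, 1.51 and 1.55 CPM at S3 and 25.1, 38.9 and 26.6 CPM at S4 and rose (log2 fold change 4.39 ± 0.83, adjusted p = 0.000427). The copper pump gene Glyma.01G219100 (HMA5) was at 2.01, 1.61 and 2.50 CPM at S3 and 0.218, 0.139 and 0.429 CPM at S4 and fell (log2 fold change -2.93 ± 0.51, adjusted p = 0.000168). None of these overlapped between stages. For phosphate transport and starvation, 9 of 74 tested genes rose, 2 fell and 63 did not pass the test (median log2 fold change 0.09). The purple acid phosphatase gene Glyma.06G028200 was at 6.28, 3.93 and 8.59 CPM at S3 and 44.7, 60.1 and 49.1 CPM at S4 and rose (log2 fold change 3.02 ± 0.54, adjusted p = 0.00024). The calls of the genes named in this paragraph held whichever of the 6 libraries was left out, but the list counts did not. Without S4 replicate 2, 0 sugar transporters rose and 1 fell, and 2 amino acid and nitrogen carriers rose and 0 fell. In the same fit 3 mineral ion transporters and aquaporins rose and 1 fell, and 4 phosphate genes rose and 0 fell.

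Protein turnover, folding and clock genes were mixed. For proteases, 5 of 186 tested genes rose, 13 fell and 168 did not pass the test (median log2 fold change -0.37). The subtilisin-like gene Glyma.18G249800 (AIR3) was at 14.1, 7.26 and 17.1 CPM at S3 and 1.83, 0.925 and 1.59 CPM at S4 and fell (log2 fold change -3.14 ± 0.42, adjusted p = 1.42e-05). For heat shock proteins and chaperones, 7 of 165 tested genes rose, 5 fell and 153 did not pass the test (median log2 fold change -0.18). The member of smallest p, Glyma.11G117200, is named a DnaJ homolog but best matches RL6, a MYB-type protein of Arabidopsis, and was at 3.53, 2.97 and 3.72 CPM at S3 and 0.306, 0.416 and 0.472 CPM at S4 and fell (log2 fold change -3.08 ± 0.37, adjusted p = 2.7e-06). The chaperone gene Glyma.18G204000 (ERDJ3A) was at 13.02, 12.6 and 14.3 CPM at S3 and 29.9, 32.5 and 28.0 CPM at S4 and rose (log2 fold change 1.18 ± 0.19, adjusted p = 7.65e-05). For the circadian clock, 1 of 16 tested genes rose, 0 fell and 15 did not pass the test (median log2 fold change -0.11). LHY, Glyma.03G261800, was at 4.24, 54.0 and 2.65 CPM at S3 and 2.05, 2.77 and 3.01 CPM at S4 and was not called (log2 fold change -2.95 ± 1.00, adjusted p = 0.0367). Its groups overlapped, and without S3 replicate 2 its log2 fold change was -0.37. The calls of Glyma.18G249800, Glyma.11G117200 and Glyma.18G204000 held whichever of the 6 libraries was left out, but the list counts did not. Without S4 replicate 2, 2 proteases rose and 4 fell, 2 chaperones rose and 2 fell, and 0 clock genes were called.

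In the list of flavonoid and seed coat pigment genes, 7 of 118 tested genes rose, 6 fell and 105 did not pass the test (median log2 fold change -0.15). The 6′-deoxychalcone synthase gene Glyma.18G285800, of the isoflavonoid branch, was at 1.02, 1.76 and 1.61 CPM at S3 and 12.4, 28.6 and 16.9 CPM at S4 and rose (log2 fold change 3.69 ± 0.43, adjusted p = 2.21e-06). Isoflavone synthase Glyma.07G202300 was at 7.48, 10.6 and 10.46 CPM at S3 and 27.9, 38.9 and 30.9 CPM at S4 and rose (log2 fold change 1.77 ± 0.36, adjusted p = 0.000805). Laccase 15, Glyma.10G219100 (TT10), which oxidises seed coat tannins in Arabidopsis, was at 1.45, 1.30 and 1.22 CPM at S3 and 5.46, 23.0 and 8.54 CPM at S4 and rose (log2 fold change 3.22 ± 0.48, adjusted p = 3.25e-05). S4 replicate 2 was the highest library in all of these. Leucoanthocyanidin reductase Glyma.03G256600, of tannin synthesis, was at 5.93, 4.30 and 4.62 CPM at S3 and 2.49, 2.17 and 1.98 CPM at S4 and fell (log2 fold change -1.16 ± 0.24, adjusted p = 0.000988). Without 1 library at a time, log2 fold changes were -1.25 to -1.01 for Glyma.03G256600 (no call without S3 replicate 1).

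Marker lists describe the tissues in these libraries. For seed coat markers, 2 of 29 tested genes rose, 3 fell and 24 did not pass the test (median log2 fold change -0.58). They summed to 2031, 2322 and 1867 CPM at S3 and 1617, 936 and 1331 CPM at S4, lowest in S4 replicate 2, which had the highest sum of storage globulins. The GLABRA2 homolog Glyma.15G016500 was at 31.4, 32.8 and 26.5 CPM at S3 and 16.4, 11.5 and 12.1 CPM at S4 and fell (log2 fold change -1.18 ± 0.20, adjusted p = 0.000158). The laccase gene Glyma.10G219100, described above with the pigment genes, is also a seed coat marker. It had the largest rise of this list (log2 fold change 3.22 ± 0.48, adjusted p = 3.25e-05). For endosperm markers, 0 of 3 tested genes rose, 0 fell and 3 did not pass the test (median log2 fold change -0.59), and the sum was 12.5 to 15.3 CPM at S3 and 5.92 to 6.48 CPM at S4. The defining marker AGL62, Glyma.20G136600, was near 0, with 4.00 counts over S3 and 2.00 over S4. For embryo markers, 0 of 15 tested genes rose, 0 fell and 15 did not pass the test (median log2 fold change -0.19), and the sum was 637 to 668 CPM at S3 and 755 to 790 CPM at S4. For pod wall markers, 0 of 9 tested genes rose, 1 fell and 8 did not pass the test (median log2 fold change -0.13), and the sums overlapped, at 186 to 201 CPM and 181 to 194 CPM. The part of tissue proportions in the changes above was not tested. For genes often taken as constant, 1 of 8 tested genes rose, 0 fell and 7 did not pass the test (median log2 fold change 0.03), and the 1 that rose was a scarce actin gene, Glyma.13G335600. Leaving out each library in turn gave log2 fold changes of 1.57 to 2.12 for Glyma.13G335600 (no call without S3 replicates 2 or 3 or S4 replicates 1 or 2).

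**Figure D4:**
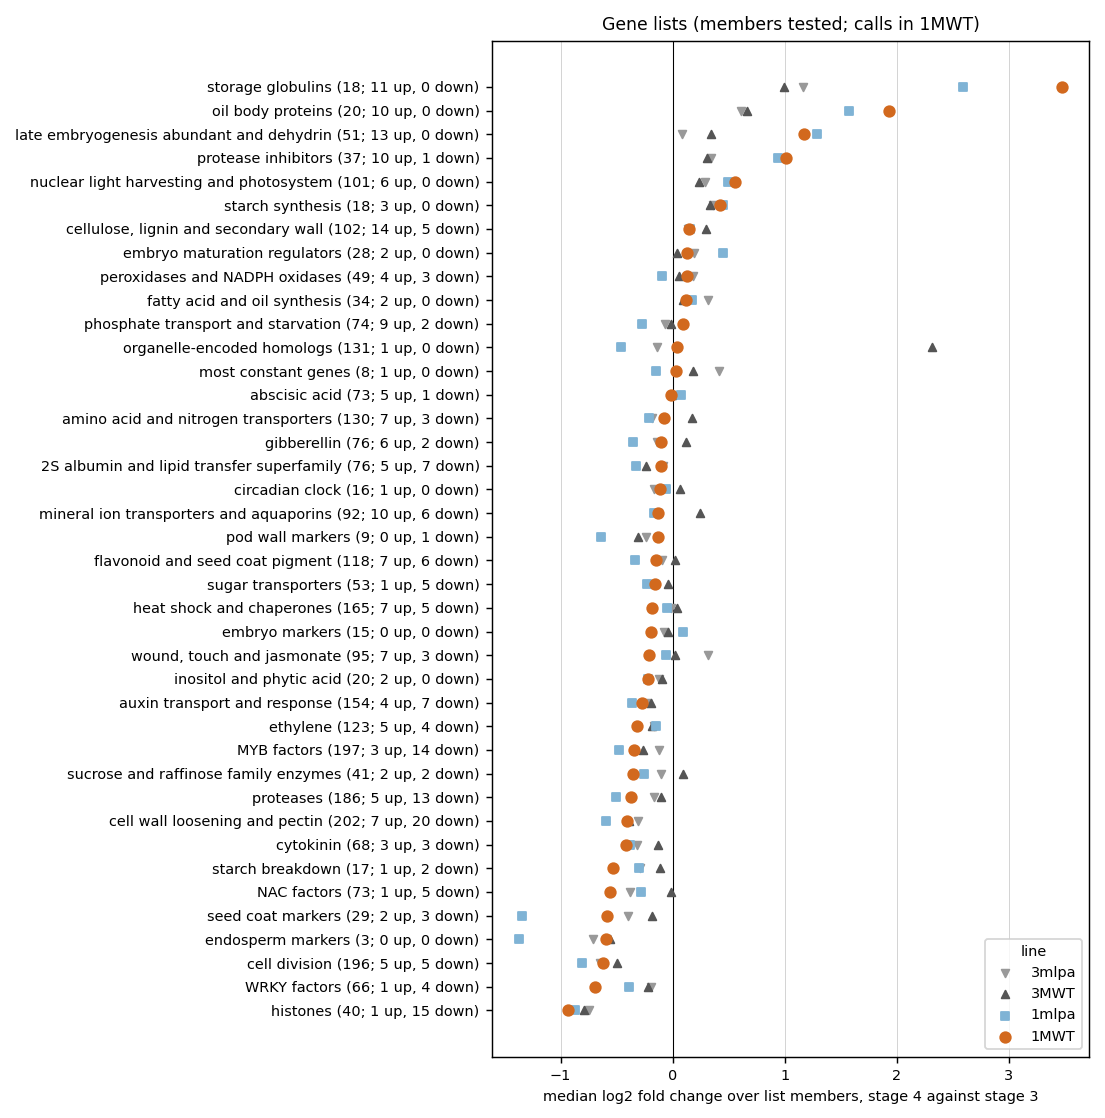
Median log2 fold change, S4 over S3 (horizontal axis), of the tested members of 40 gene lists (vertical axis, with the numbers tested and called in 1MWT) in each of the 4 lines. In 1MWT the medians run from -0.93 for histones to 3.48 for storage globulins, and the organelle-encoded homologs stand apart in 3MWT, at 2.32 against 0.04 in 1MWT.

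The same step in the other lines was measured in other libraries. From S3 to S4, 1901 genes (4.69%) were called in 1mlpa (1.54% rose and 3.15% fell), 484 (1.19%) in 3MWT and 567 (1.4%) in 3mlpa. Of the 1264 genes called in 1MWT, 765 were called in the same direction in 1mlpa, 60.5% of the 1MWT calls and 40.2% of the 1mlpa calls. The number was 170 for 3MWT (13.4% and 35.1%) and 152 for 3mlpa (12.0% and 26.8%). All 4 lines shared 58 genes, of which 11 rose and 47 fell. Of the 720 genes that rose in 1MWT, 703 had a positive estimate in 1mlpa, 679 in 3MWT and 675 in 3mlpa, and their median changes there were 1.37, 0.74 and 0.73 on the log2 scale. Of the 544 that fell, 540, 511 and 517 had a negative estimate, with medians of -1.58, -0.97 and -0.83. These genes were chosen by their 1MWT values, so smaller medians in the other lines follow in part from the choice.

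**Figure D5:**
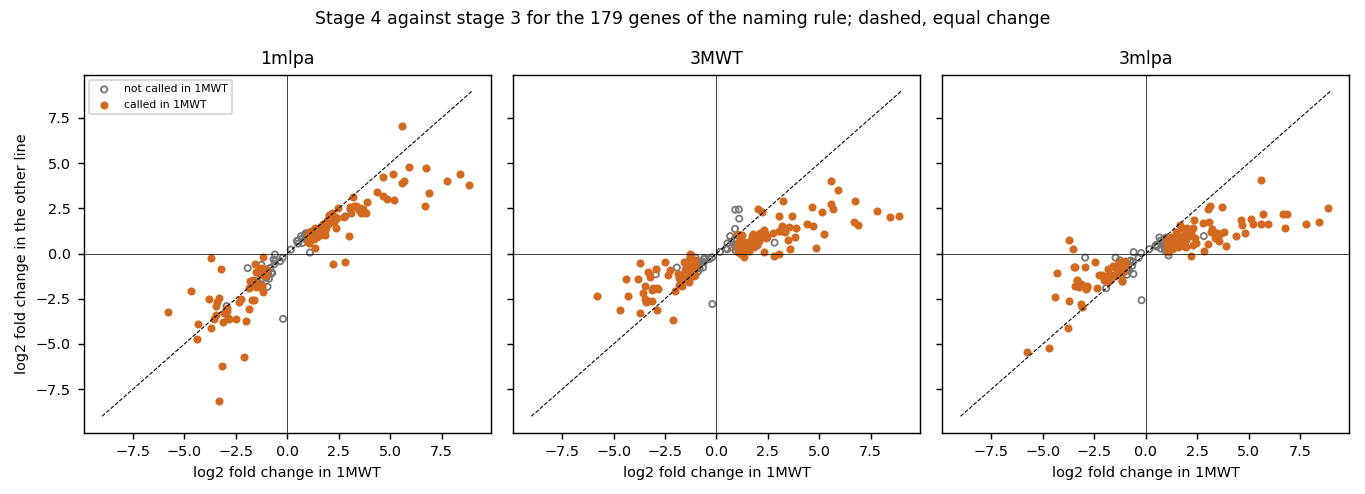
Log2 fold change from S3 to S4 in 1mlpa, 3MWT and 3mlpa (vertical axes) against that in 1MWT (horizontal axes) for the 179 genes of the naming rule, with genes called in 1MWT filled and a dashed line of equal change. Of the 136 genes called in 1MWT, 134 had the same sign in 1mlpa, 132 in 3MWT and 133 in 3mlpa.

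The difference in this step between lines was tested as an interaction. Against 1mlpa, edgeR called 0 genes (0%), with 1305 at an unadjusted p under 0.05, and DESeq2 called 3. Against 3MWT, edgeR called 0 genes (0%), with 3837 at an unadjusted p under 0.05, and DESeq2 called 11. With only the 12 libraries compared in the fit, 274 genes were called against 3MWT, 202 of them with the larger value in 1MWT. Glycinin A3B4, Glyma.13G123500, had log2 fold changes of 8.86 in 1MWT, 3.77 in 1mlpa and 2.07 in 3MWT. Its differences were 5.08 ± 1.91 from 1mlpa and 6.78 ± 1.97 from 3MWT (adjusted p = 1.0 and 0.203). The napin-type albumin, Glyma.12G213600, had 8.42, 4.39 and 2.04 in these lines, and differed from 3MWT by 6.38 ± 1.47 (adjusted p = 0.104). Storage globulins had medians of 3.48, 2.59, 0.99 and 1.16 in 1MWT, 1mlpa, 3MWT and 3mlpa, with 11, 4, 0 and 1 genes that rose. At S3 the 10 genes with the most counts took 3.8% to 4.5% of the counts in 1MWT. Their S3 share was 4.105% to 10.505% in 1mlpa, 8.471% to 13.742% in 3MWT and 4.065% to 10.499% in 3mlpa. At S4 it was 12.4% to 15.4% in 1MWT, and 20.018% to 21.395%, 16.692% to 19.163% and 11.042% to 22.078% in those lines. Whether the S3 levels account for the smaller medians in the other lines was not tested. Oil body proteins had medians of 1.93, 1.58, 0.66 and 0.61, and histones -0.93, -0.87, -0.79 and -0.75. Among the organelle-encoded homologs 1 of 131 rose in 1MWT and 73 rose in 3MWT, where 2.34% of annotated genes rose. Line and study cannot be told apart for 3MWT, whose libraries came from the earlier study.

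Within 1MWT the step from S3 to S4 had fewer calls than the step that follows. From stage 4 to 5, 2904 genes (7.17%) were called, of which 776 rose and 2128 fell. From stage 1 to 2 there were 706 calls (1.74%), and from stage 2 to 3 there were 4 (0.00987%), where the stage 2 libraries ranged from 91.0 to 6473 CPM in summed storage globulins. Glycinin A3B4, Glyma.13G123500, averaged 9.46, 2.43, 4.44, 2046 and 24134 CPM from stage 1 to 5. Glycinin G1, Glyma.03G163500, averaged 52.1, 369, 1065, 39359 and 152451 CPM. Both means were highest at stage 5. MIPS1, Glyma.11G238800, averaged 724, 1596, 2454, 2763 and 1697 CPM, with its highest mean at S4. The MYB98 homolog Glyma.U028100 averaged 7.43, 3.96, 0.95, 0.0437 and 0.0188 CPM, lower at each stage. These means share libraries with the comparison of S4 and S3 and carry no test of their own.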

How the data were processed

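RNA-seq of whole developing seeds was deposited as a table of read counts for 56044 genes in 60 libraries. Per the study's methods, single-end reads of 100 bases were aligned by the authors with STAR 2.4.2 to the Williams 82 genome (Wm82.a2.v1) and the deposited counts were made with featureCounts 1.4.6. The treatment of strand and of reads that align to several places was not stated. The authors also deposited RPKM values, used here only to compare levels between genes, and tables of their own fold changes and p-values from DESeq2 1.8.2 (R 3.2.4), from which only gene annotation was taken. All 60 libraries have a column, and 0 per-sample columns were left out.

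Counts were fitted with edgeR 4.0.16 (R 4.3.3, TMM normalization, filterByExpr, quasi-likelihood test) with 20 group means over all 60 libraries, and 40517 genes passed the filter. P-values were adjusted over all genes tested by the Benjamini-Hochberg method, and standard errors are the fold change over the square root of F. The fit had 40 residual and 4.61 prior degrees of freedom. Total counts were 17359192 to 42800413. Exact intervals of count ratios are conditional binomial and cover counting error only. The scripts were tested on simulated data.

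The 40 gene lists were made from words and symbols in the annotation, and a gene can be in several lists. The members and lists were chosen with earlier results of these data known. Named genes were the 12 largest rises and 12 largest falls among called, annotated genes with a mean log2 CPM above 1 and no overlap of groups, in each list the members of smallest adjusted p (at most 4), the 3 annotated genes of highest CPM at S4, called genes of the interactions, and MIPS1, MRP-L and MRP-N. The text names a part of these 179 genes, and says so where a gene outside them was added after its values were seen. Alternatives were RLE size factors, no filter, DESeq2 1.42.0, fits of the compared groups or lines alone, a replicate block, an adjusted p under 0.05 with no minimum fold, and each library left out. Leaving out the 3 libraries with a suffix was added after seeing the data. No sequences are shown, since no annotation used here links these gene identifiers to a sequence.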

Additional observations from a re-analysis of the deposited data

How the results depend on the processing

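With RLE size factors, no filter on low counts and DESeq2, the calls between S3 and S4 in 1MWT numbered 1266, 1196 and 1553. They numbered 2056 (938 rose, 1118 fell, 45.6% rising against 57% with all libraries) with only the 6 libraries compared in the fit. With only the 1MWT line fitted they numbered 841, and 36 of the 136 named genes that were called lost their call. They numbered 6731 at an adjusted p under 0.05 with no minimum fold, and 1129 without the 3 libraries with a suffix. Leaving out 1 library gave 399 to 918 calls. S4 replicate 2 mattered most: without it 55 of the 136 named genes that were called lost their call. Of these 136, 66 were not called in all 6 fits without 1 library. The interaction with 1mlpa, at 0 calls, gave 3 by DESeq2 and 0 to 1 with 1 library left out. The interaction with 3MWT, at 0 calls, gave 11 by DESeq2, 274 with only the 12 libraries compared, 6 with only the 2 lines, 7 at an adjusted p under 0.05, and 0 to 2 with 1 library left out. The cause of these shifts was not tested. The AGL62 homolog Glyma.20G136600, with a log2 fold change of -0.20, ranged from -0.64 without S3 replicate 2 to 2.87 without S3 replicate 3 (0.32 without S4 replicate 1), and has too few counts for a direction. The replicate numbers were not taken to pair the samples, since none of the lines checked (1MWT, 1mlpa and 3MWT) had every same-number correlation over 0.1. These ran from -0.062 to 0.034 for 1MWT libraries, from 0.097 to 0.135 for 1mlpa libraries and from 0.069 to 0.115 for 3MWT libraries. In 1mlpa and 3MWT, though not in 1MWT, every sample correlated best with its own number. With a replicate block there were 1200 calls for S4 against S3 and 0 for each interaction.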
